A study of Mus musculus with 2 samples.

Results

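The genes described here are 10 core members of the Notch signalling pathway, chosen by name from the 55536 genes of the deposited table. They are the receptors Notch1, Notch2, Notch3 and Notch4, the ligands Dll1, Dll4, Jag1 and Jag2, and the target genes Hes1 and Hey1, and all 10 had reads in both libraries. Their RNA was measured by sequencing in 2 mammary tumors of MMTV-PyVT mice. The mouse of the C3G group had been treated with cyanidin-3-glucoside (C3G), a plant pigment, and the mouse of the DMSO group with the solvent dimethyl sulfoxide (DMSO). Both mice carried the polyoma virus middle T antigen under the promoter of mouse mammary tumor virus (MMTV), which drives it in mammary epithelium. Dosing began at ductal hyperplasia and tumors were taken at a set tumor burden, so tumors of the 2 groups need not be of the same age. Dose, strain and age were not given in the sources used here. The study's question was how C3G treatment affects these tumors.

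Notch receptors are single-pass membrane proteins that are activated by Delta-like and Jagged ligands on a neighbouring cell. Ligand binding leads to cleavage by an ADAM protease and then by gamma-secretase, and the freed intracellular domain enters the nucleus, where it joins the DNA-binding protein Rbpj and a Mastermind coactivator to switch on target genes. Among these are the Hes and Hey genes, which encode basic helix-loop-helix repressors. In the mouse mammary gland Notch signalling is known for directing cells toward the luminal fate, and the Notch4 locus is a classical integration site of the MMTV virus. Notch4 and Dll4 are also well known from blood vessels, and Notch3 from the mural cells around them.

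Levels are given in TPM, a transcript abundance scaled by gene length and to a fixed library total. Between genes, TPM can be set side by side only as far as the annotated exon lengths match the transcripts made. The gene-assigned reads behind the levels, recovered from the TPM values, numbered 16081110 in the C3G library and 12192275 in the DMSO library. With 1 tumor per group there is no replicate check and no test. Each interval in parentheses is a 95% interval of a ratio that covers counting error only, and treatment cannot be told apart from differences between mice. Both tumors carried luminal epithelial RNA, with Epcam at 1399 TPM in the C3G tumor and 1484 TPM in the DMSO tumor. In bulk tissue, fewer cells of a type and less RNA per cell cannot be told apart.

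None of the 10 genes was called higher or lower by size, a call that asks for at least 5 TPM in the higher library and a log2 ratio, log2((C3G TPM + 1)/(DMSO TPM + 1)), of at least 1 in size. The 5 TPM minimum was met by 9 of the 10, Notch4 being the exception. Across the 12780 genes that met it, 3.10% were called higher (396 genes) and 4.30% lower (550 genes). With all ratios centred on genes of at least 10 TPM, a shift of 0.12 on the log2 scale, those counts were 298 and 663. Removing trends in length and GC content gave 509 and 387. Requiring at least 50 reads over both libraries as well can only remove calls. It left 0 of the 10 called, against 1.83% of 11909 genes called higher and 2.62% lower. The log2 ratio was above 0 for 7 of the 10 genes and below 0 for 3, with a median of 0.33. For all 17468 genes with a mean of at least 1 TPM, 58.9% lay above 0 and the median was 0.10. With so few genes, and none past the size threshold, the list is described gene by gene.

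**Figure D1:**
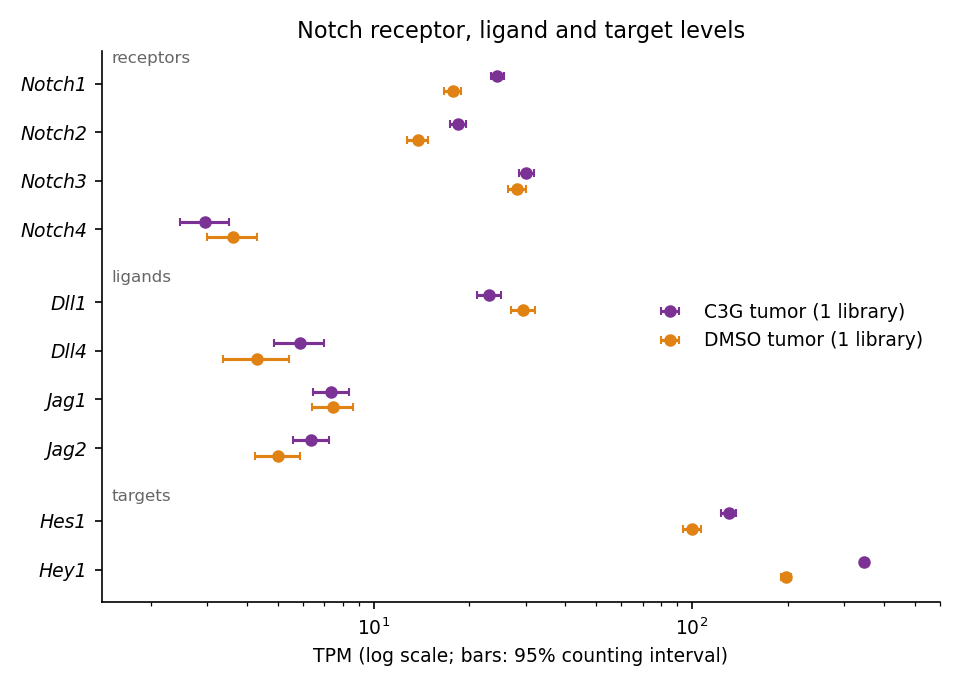
TPM on a log axis for the 4 receptors, 4 ligands and 2 targets in the C3G tumor (purple, upper point) and the DMSO tumor (orange, lower point), with 95% counting intervals from the recovered reads. Hey1 and Hes1 stand above all receptors and ligands in both tumors, and Notch4 is the lowest of the 10 in both.

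The receptors lay close together between the tumors, with Notch1 and Notch2 somewhat higher in the C3G tumor. Notch1 (chromosome 2, 26457903 to 26516663, build mm10) had 24.5 TPM in the C3G tumor (1914 reads), against 17.7 TPM in the DMSO tumor (1092 reads), 1.38-fold higher (1.28 to 1.49). Notch2 (chromosome 3, 98013527 to 98150361) stood at 18.4 TPM with C3G (1093 reads), against 13.8 TPM with DMSO (643 reads), 1.34-fold higher (1.22 to 1.48). Counting error did not cover either difference, but both ratios lay near the edge of the range from 0.846-fold to 1.34-fold that held the central 50% of 16977 genes with reads in both tumors. Genes with a mean of at least 5 TPM, which leaves out Notch4, were split into eighths by exon length. Notch1 and Notch2 were the 2 members in the longest eighth, where the median log2 ratio of its genes was 0.21. Once trends in length and GC were taken out, the log2 ratio of Notch1 was 0.40 in place of 0.45, and that of Notch2 0.31 in place of 0.40.

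Notch3 (chromosome 17, 32120820 to 32166852), which in the mouse mammary gland marks luminal progenitor cells, had the highest TPM of the receptors in both tumors. Notch1 had more reads than Notch3 in both, but over an annotated exon length of 14232 bases against 8089. The rank of Notch3 thus rests on those annotated lengths. Notch3 stood at 30.1 TPM in the C3G tumor (1340 reads), against 28.2 TPM in the DMSO tumor (989 reads), a ratio of 1.07 (0.984 to 1.16). That difference was within counting error, and its log2 ratio of 0.093 became -0.027 with centring and -0.0051 with length and GC trends removed. Notch4 (chromosome 17, 34564268 to 34588503) was the least abundant, at 2.96 TPM with C3G (131 reads), against 3.61 TPM with DMSO (126 reads), 1.22-fold lower (0.947 to 1.57). The interval of Notch4 includes no difference, and its depth would not show one of this size.

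Summed over the 4 receptors, 76.0 TPM were measured in the C3G tumor and 63.3 TPM in the DMSO tumor. Notch3 made up 39.7% of that sum in the C3G tumor and 44.6% in the DMSO tumor. The share of Notch1 was 32.2% with C3G and 28.0% with DMSO, that of Notch2 24.3% and 21.7%, and that of Notch4 3.89% and 5.70%. These shares, too, rest on the annotated exon lengths. The balance of Notch1 to Notch3 was 0.812 in the C3G tumor and 0.628 in the DMSO tumor, a ratio of 1.29 (1.16 to 1.45) that does not depend on how the libraries were scaled.

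The receptors also differ in the DNA just before their RefSeq start sites, which is printed here. RefSeq windows of 250 bases before the start (build GRCm38.p6) were found for 8 of the 10 genes, with 2 start sites for Dll1, and none for Hes1 and Hey1. The RefSeq start used for Notch1 lies 12841 bases inside the span given above, which begins at a GENCODE start further upstream, while those of Notch2, Notch3 and Notch4 lie within 38 bases of the GENCODE start. Capitals mark the N box, CACNAG on either strand, a class of site bound by Hes repressors.
Notch1, chr2:26503823-26504072, minus strand: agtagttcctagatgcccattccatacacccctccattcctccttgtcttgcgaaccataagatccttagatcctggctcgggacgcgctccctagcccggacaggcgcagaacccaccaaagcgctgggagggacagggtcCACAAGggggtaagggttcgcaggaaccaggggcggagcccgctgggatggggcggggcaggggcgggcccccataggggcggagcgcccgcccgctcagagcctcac
Notch2, chr3:98013288-98013537, plus strand: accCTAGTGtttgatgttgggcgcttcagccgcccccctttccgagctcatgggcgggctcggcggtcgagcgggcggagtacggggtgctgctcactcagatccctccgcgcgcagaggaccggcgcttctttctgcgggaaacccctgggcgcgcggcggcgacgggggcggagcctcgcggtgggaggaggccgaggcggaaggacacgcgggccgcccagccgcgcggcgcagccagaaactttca
Notch3, chr17:32166891-32167140, minus strand: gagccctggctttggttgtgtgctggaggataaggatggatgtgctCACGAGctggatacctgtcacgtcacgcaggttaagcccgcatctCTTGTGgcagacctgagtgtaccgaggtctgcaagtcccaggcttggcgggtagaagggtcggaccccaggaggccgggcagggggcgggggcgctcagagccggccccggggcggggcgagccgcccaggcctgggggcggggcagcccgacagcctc
Notch4, chr17:34564045-34564294, plus strand: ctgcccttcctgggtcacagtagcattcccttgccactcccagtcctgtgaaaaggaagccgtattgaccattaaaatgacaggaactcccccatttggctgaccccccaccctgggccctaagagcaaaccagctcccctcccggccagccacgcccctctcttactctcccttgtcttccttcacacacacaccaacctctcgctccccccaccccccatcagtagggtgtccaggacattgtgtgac

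The windows of Notch1, Notch2 and Notch3 held 16, 34 and 17 CpG dinucleotides, and that of Notch4 held 4. Those of the less abundant ligands Jag2, Jag1 and Dll4 held 54, 20 and 14. The 2 windows of Dll1, the most abundant ligand, held 21 and 13. A link of CpG number to RNA level was not tested. The median over 32851 RefSeq windows was 6. An N box was found in 4 of the 9 windows of the family, those of Notch1, Notch2, Notch3 and Dll4, and in 36.7% of all windows. The core letters of the Rbpj site, TGGGAA on either strand, were in none of the 9 and in 21.6% of all windows. These matches describe letters in a short window and not binding.

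**Figure D2:**
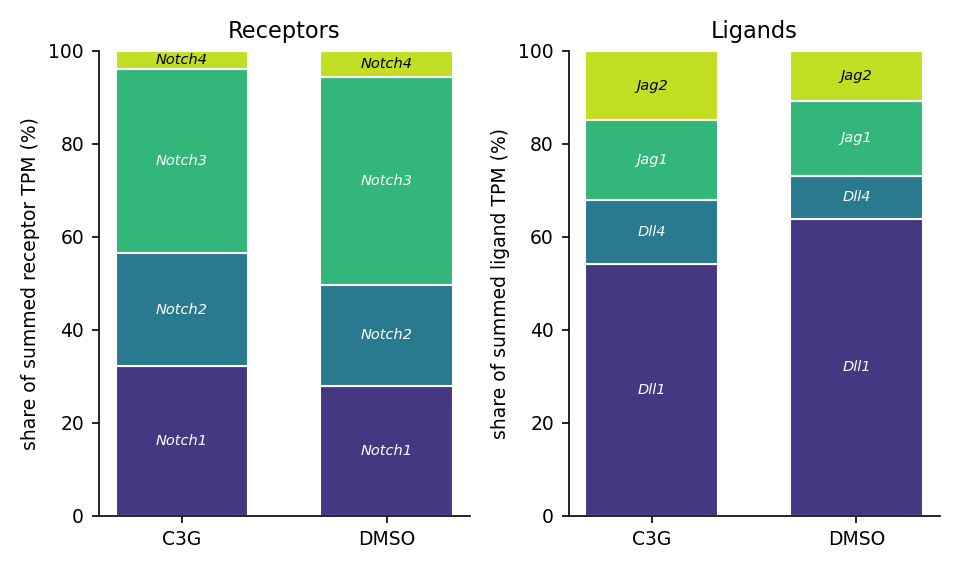
Share of the summed receptor TPM (left) and ligand TPM (right) held by each gene, in percent, with the C3G tumor left of the DMSO tumor. Notch3 and Dll1 hold the largest shares in both tumors, and both shares are smaller in the C3G tumor (39.7% against 44.6%, and 54.1% against 63.8%).

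Among the ligands Dll1 was lower in the C3G tumor, Dll4 and Jag2 were slightly higher, and Jag1 was at the same level within counting error. Dll1 (chromosome 17, 15367354 to 15376872), a Delta-like ligand known from mouse mammary stem cells of the basal layer, was the most abundant. It stood at 23.0 TPM with C3G (534 reads), against 29.5 TPM with DMSO (540 reads), 1.28-fold lower (1.14 to 1.45). Its log2 ratio of -0.34 was the lowest of the 10 genes. The long noncoding RNA gene A930024N18Rik on the opposite strand shares 867 exon bases with Dll1, 20.5% of Dll1's exon length, and the library kit does not mark strand. Reads in that stretch are therefore uncertain, although A930024N18Rik itself stood at only 0.966 TPM with C3G and 1.81 TPM with DMSO.

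Dll4 (chromosome 2, 119325784 to 119335962), the ligand that restrains vessel sprouting in endothelium, stood at 5.86 TPM in the C3G tumor (124 reads), against 4.31 TPM in the DMSO tumor (72 reads). Its ratio was 1.36 (1.01 to 1.84), an interval that barely clears no difference. Jag2 (chromosome 12, 112907819 to 112929776) stood at 6.38 TPM with C3G (244 reads), against 5.0 TPM with DMSO (151 reads), 1.27-fold higher (1.04 to 1.57). Jag1 (chromosome 2, 137081456 to 137116644) stood at 7.34 TPM with C3G (235 reads), against 7.44 TPM with DMSO (188 reads), a ratio of 0.986 (0.811 to 1.20). Dll4 shares 214 exon bases, 5.56% of its exon length, with the opposite-strand gene Gm14207, which was about as abundant, at 4.66 TPM with C3G and 5.47 TPM with DMSO. Reads there are uncertain as well. The receptors Notch1, Notch2 and Notch3 share at most 7.50% of their exon length with any other annotated gene, and Notch4, Jag1, Jag2, Hes1 and Hey1 share none.

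The ligands together came to 42.6 TPM in the C3G tumor and 46.3 TPM in the DMSO tumor. Dll1 held 54.1% of that sum with C3G and 63.8% with DMSO. Jag1, Jag2 and Dll4 held 17.2%, 15.0% and 13.7% in the C3G tumor, and 16.1%, 10.8% and 9.32% in the DMSO tumor. The ratio of Jag1 to Dll1 was 0.319 with C3G and 0.252 with DMSO, 1.26-fold higher (1.00 to 1.60).

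The target genes were far more abundant than the receptors, and both were higher in the C3G tumor. Hey1 (chromosome 3, 8663359 to 8667256) stood at 348 TPM in the C3G tumor (6242 reads), against 197 TPM in the DMSO tumor (2788 reads), 1.77-fold higher (1.69 to 1.85). Its log2 ratio of 0.82 was the highest of the 10, lay above those of 93.3% of measured genes, and ranged from 0.70 to 0.82 over the scalings and pseudocounts tried. At a threshold of 1.5-fold in place of 2-fold, Hey1 was called higher and was the only one of the 10 called, where 11.5% of all genes were called higher and 9.15% lower. Hes1 (chromosome 16, 30064384 to 30067796) stood at 130.3 TPM with C3G (1458 reads), against 99.98 TPM with DMSO (883 reads), 1.30-fold higher (1.20 to 1.42). The ratio of Hey1 to Hes1 was 2.67 in the C3G tumor and 1.97 in the DMSO tumor, 1.36-fold higher with C3G (1.23 to 1.49).

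**Figure D3:**
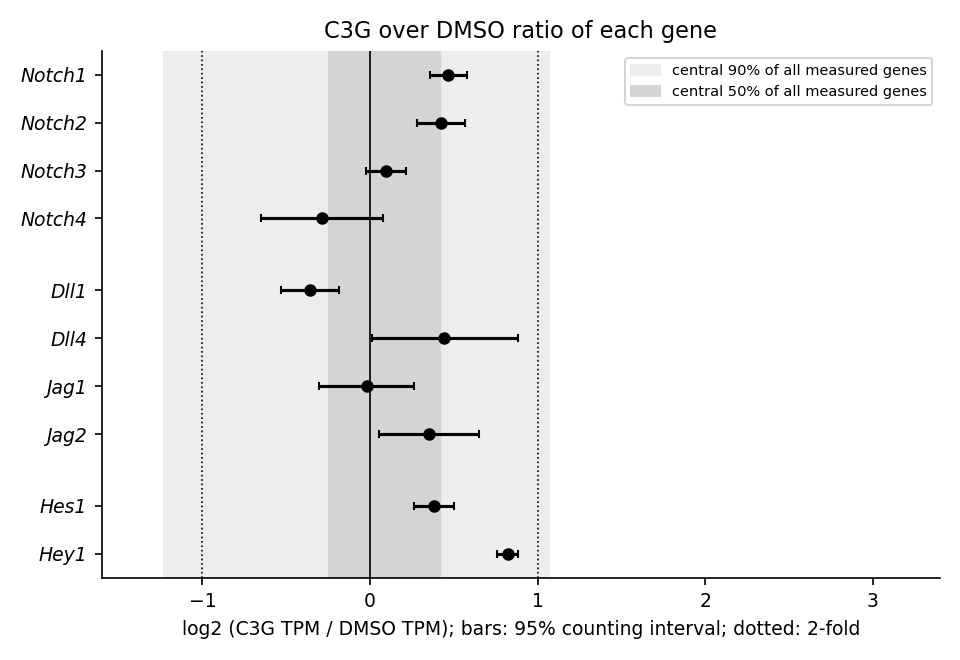
Log2 ratio of C3G TPM over DMSO TPM for each gene, with 95% counting intervals, over bands that hold the central 50% and 90% of all genes measured in both tumors. All 10 points lie between the dotted 2-fold lines, Hey1 furthest to the right at 1.77-fold and Dll1 furthest to the left at 1.28-fold lower.

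From high to low, the order of levels was Hey1, Hes1, Notch3, Notch1, Dll1, Notch2, Jag1, Jag2, Dll4 and Notch4 in the C3G tumor. In the DMSO tumor it was the same but for Dll1, which stood just above Notch3. The place of Notch1 below Notch3 rests on their annotated exon lengths. Neighbours whose counting intervals overlapped were Notch1 and Dll1, Jag1 and Jag2, and Jag2 and Dll4 in the C3G tumor. In the DMSO tumor they were Dll1 and Notch3, Jag2 and Dll4, and Dll4 and Notch4. Among all genes of its library, Hey1 was at rank 328 in the C3G tumor and 644 in the DMSO tumor, and Notch4 at rank 13805 and 13112.

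Of 55 further pathway genes, listed by role with earlier results of these data known, 49 had a mean of at least 1 TPM. Of these, 29 had log2 ratios above 0 and 20 below, with a median of 0.063, beside 0.10 for all genes. None of the 43 that met the 5 TPM minimum was called by size. Across all genes that met that minimum, 11.5% were called higher at 1.5-fold and 9.15% lower. Of the 43, 3 were called higher at that threshold and 1 lower. The higher ones were Mib1 (35.9 TPM with C3G, 20.3 TPM with DMSO), a ubiquitin ligase that lets ligands be internalised in the sending cell, the Groucho-type corepressor Tle2 (53.2 and 30.5 TPM) and the protease Adam10 (112 and 73.7 TPM), which makes the ligand-dependent cut in the receptor. The lower one was Cir1 (58.4 and 95.5 TPM), a corepressor that binds Rbpj.

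The enzymes and nuclear partners that act on the receptors lay on both sides of 0. Of 9 proteases and gamma-secretase subunits, 6 were above 0 with a median log2 ratio of 0.15. The secretase subunits Psenen and Ncstn, the most abundant of these by their mean over the tumors, stood at 167 and 111 TPM in the C3G tumor, against 173 and 121 TPM in the DMSO tumor. Of 7 genes of the nuclear complex, 4 were above 0, with a median of 0.063. The coactivator gene Maml2 stood at 23.3 TPM with C3G and 34.2 TPM with DMSO, 1.47-fold lower (1.33 to 1.61), and the acetyltransferase gene Kat2b at 49.5 TPM with C3G and 33.5 TPM with DMSO, 1.48-fold higher (1.35 to 1.62).

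Of 5 sugar transferase genes, which tune ligand choice by modifying the receptor, 4 were above 0. The most abundant were Rfng, at 38.1 TPM with C3G and 48.6 TPM with DMSO, and Poglut1, at 26.9 and 25.3 TPM. The 8 corepressors had a median of -0.013, and Hdac1, the most abundant by its mean over the tumors, stood at 100.3 TPM with C3G and 91.4 TPM with DMSO. The 12 measured genes of endocytosis and turnover had a median of 0.0058. Numb, an inhibitor of Notch, stood at 199 TPM with C3G and 202 TPM with DMSO, and Dtx3 at 130 and 135 TPM.

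The 3 further ligand genes were barely detected. Dlk2 had 9 reads in the C3G library and 0 in the DMSO library, and Dlk1 had 13 and 2. Of 8 other measured targets, 5 were above 0, with a median of 0.059. The most abundant were Myc, at 79.6 TPM with C3G and 75.3 TPM with DMSO, and the cyclin gene Ccnd1, at 76.2 and 51.8 TPM, 1.47-fold higher (1.36 to 1.59). The relatives of Hey1, chosen once their values were known, lay on either side of 0. Heyl stood at 4.88 TPM with C3G and 3.47 TPM with DMSO, and Hey2 at 1.23 and 2.71 TPM on 31 and 54 reads, 2.21-fold lower (1.39 to 3.55). Hes5 had no read in either library.

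**Figure D4:**
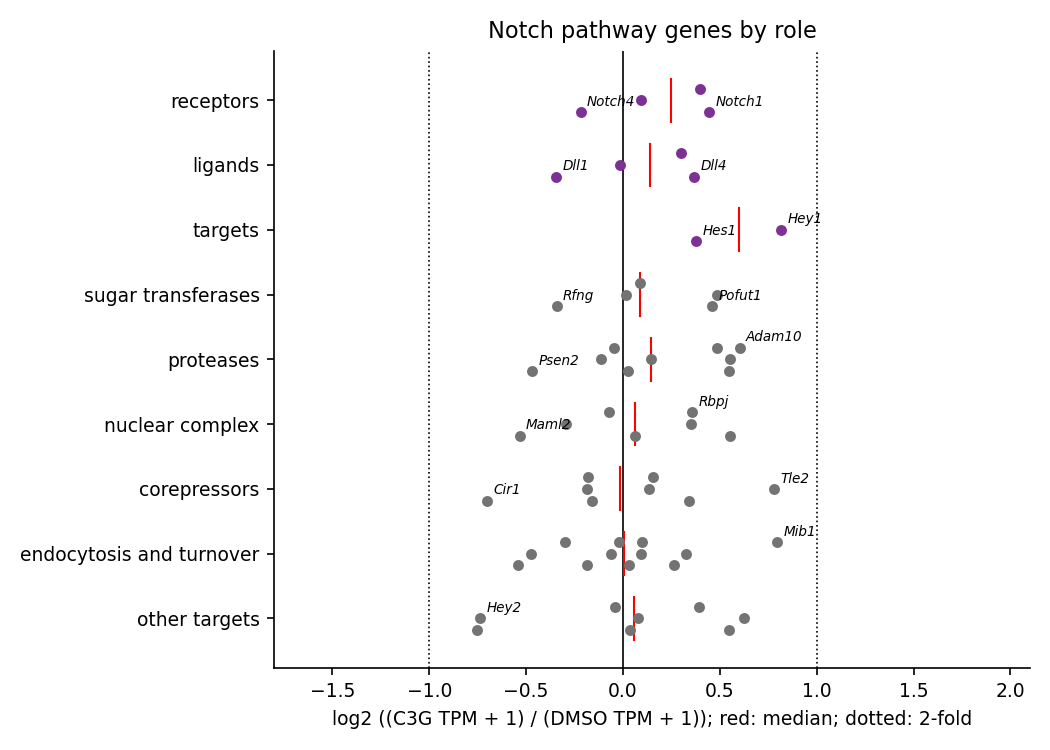
Log2 ratios of C3G over DMSO (pseudocount 1) for genes with a mean of at least 1 TPM, by role, with the 10 core genes in purple, the other pathway genes in grey and the median of each row as a red line. No point passes the dotted 2-fold lines, and Mib1, Tle2 and Hey1 lie furthest to the right.

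Several marker lists differed more between the tumors than the Notch genes did. Endothelial markers were higher in the C3G tumor, with 14 of 15 above 0 and a median log2 ratio of 1.00. Of the 13 that met the 5 TPM minimum, 7 were called higher by size, where 3.10% of all genes were called higher and 4.30% lower. Summed levels of the 15 were 147 TPM with C3G and 65.7 TPM with DMSO. Notch4 and Dll4, whose RNA is known from endothelium, stood at 0.820-fold and 1.36-fold of their DMSO levels. The ratio of Notch4 to the endothelial adhesion gene Pecam1 was 0.162 in the C3G tumor and 0.550 in the DMSO tumor, 3.39-fold lower (2.49 to 4.61). Against the cadherin gene Cdh5 it was 0.166 with C3G and 0.480 with DMSO, 2.89-fold lower (2.09 to 3.99). The ratio of Dll4 to Pecam1 was 0.321 with C3G and 0.658 with DMSO, 2.05-fold lower (1.44 to 2.89), and to Cdh5 0.329 and 0.573, 1.74-fold lower (1.21 to 2.50). The size of these ratios depended on the marker, and for Dll4 the direction did as well. Eng, a TGF-beta coreceptor of endothelium and the most abundant of the 15 by its mean over the tumors, stood at 16.0 TPM with C3G and 10.6 TPM with DMSO. The ratio of Notch4 to Eng was 0.184 with C3G and 0.340 with DMSO, 1.85-fold lower (1.35 to 2.52). For Dll4 it was 0.365 and 0.407, a 1.11-fold difference within counting error (0.780 to 1.59). All these pairs were set up after the values were seen. The marker Flt1 stood at 3.96 TPM with C3G and 4.32 TPM with DMSO, 0.917-fold of its DMSO level (0.772 to 1.09). The 1.36-fold of Dll4 was above that value, and the 0.820-fold of Notch4 was somewhat below it. Of the 5 arterial markers, 3 were measured, all above 0, with Efnb2 at 11.3 TPM with C3G and 7.64 TPM with DMSO.

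Mural cell markers, beside which Notch3 is read, had a median of 0.36, with 5 of 7 above 0 and summed levels of 50.9 TPM with C3G and 40.9 TPM with DMSO. Rgs5 stood at 27.0 TPM with C3G and 17.6 TPM with DMSO. The ratio of Notch3 to Rgs5 was 1.12 in the C3G tumor and 1.60 in the DMSO tumor, 1.43-fold lower (1.23 to 1.68). Both its size and its direction depend on the marker. The log2 ratio of Rgs5, 0.59, was the highest of the 7 mural markers, above their median of 0.36. That of Notch3, 0.093, was close to that of Pdgfrb, 0.13. It lay above those of the 2 mural markers below 0, Cspg4 at -0.22 and Ndufa4l2 at -0.83. Basal and myoepithelial markers, beside which Dll1 is read, had a median of -0.84, with 8 of 10 below 0, 5 called lower and summed levels of 618 TPM with C3G and 1205 TPM with DMSO. All 5 called lower are smooth muscle contraction genes. Among them the actin gene Acta2 stood at 318 TPM with C3G and 712 TPM with DMSO. The basal keratin gene Krt14 stood at 66.0 and 83.7 TPM. Of the 2 markers above 0, the basal keratin gene Krt5 stood at 48.4 TPM with C3G and 36.2 TPM with DMSO. The other, Trp63, stood at 14.9 and 11.9 TPM. Luminal markers had a median of -0.48, with 10 of 12 below 0, and 2 of the 10 that met the 5 TPM minimum were called lower. These 2 were Krt19 (246 TPM with C3G, 678 TPM with DMSO) and Foxa1 (7.49 and 19.2 TPM). The luminal keratin gene Krt18 stood at 1769 TPM with C3G and 2824 TPM with DMSO. The luminal markers Elf5 and Kit differed little, at 235 and 103 TPM with C3G, against 222 and 106 TPM with DMSO. Aldh1a3 stood at 16.2 TPM with C3G and 24.2 TPM with DMSO, 1.49-fold lower (1.31 to 1.71).

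Fat cell markers were the furthest apart, with all 8 above 0 and a median of 2.47. All 7 that met the 5 TPM minimum were called higher. Summed levels of the 8 were 1354 TPM with C3G and 230.1 TPM with DMSO. All 6 T cell markers were below 0, with sums of 13.5 TPM with C3G and 33.3 TPM with DMSO. Of 4 B cell markers only Cd79b reached a mean of 1 TPM, at 1.78 TPM with C3G and 2.90 TPM with DMSO on 14 and 18 reads. Ms4a1 had 1 read with C3G and 0 with DMSO. The 5 macrophage and 5 fibroblast markers had medians of -0.20 and -0.33 with none called, and the 5 milk genes, 4 of them measured, a median of 0.46. Nuclear ribosomal RNA loci took 0.654% of reads with C3G and 0.308% with DMSO. The part of these cell types and of RNA quality in the levels of the 10 genes was not tested.

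**Figure D5:**
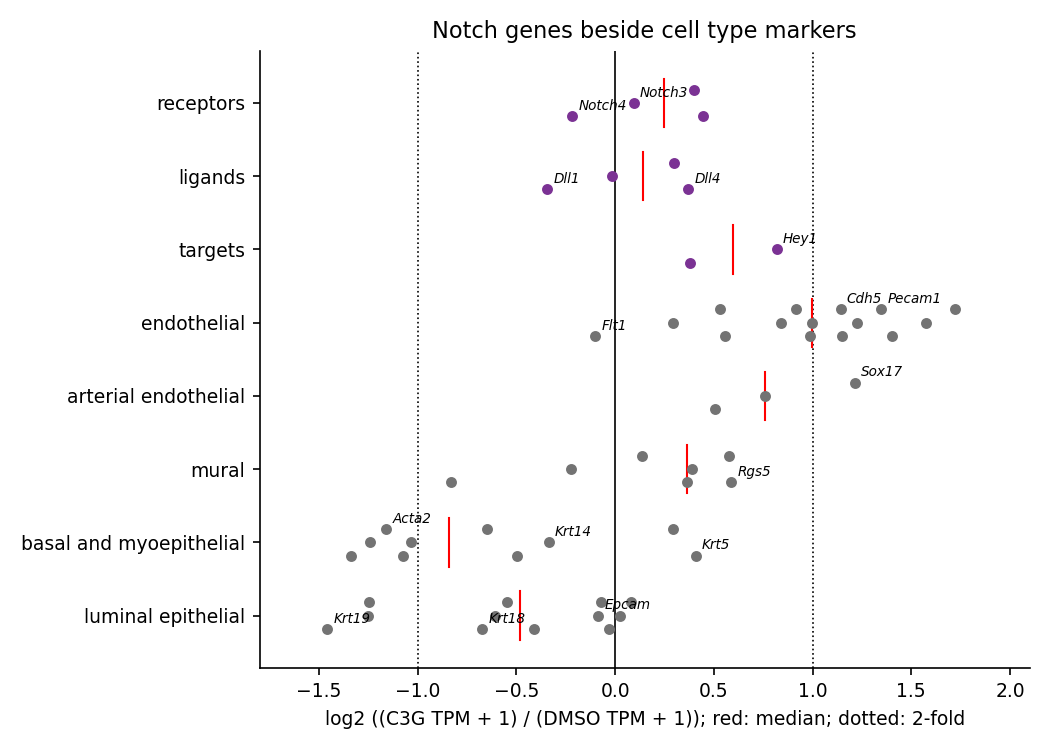
Log2 ratios of C3G over DMSO (pseudocount 1) for the 10 core Notch genes (purple) and for markers of vessel, mural and epithelial cells (grey) with a mean of at least 1 TPM, with row medians in red. The endothelial row centres on 1.00 and the basal row on -0.84, while the receptors and ligands lie between -0.34 and 0.45.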

How the data were processed

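RNA of 1 mammary tumor per group was sequenced. Per the labels' protocols, the RNeasy Plus kit served for extraction and a TruSeq RNA kit, version 2, for library preparation. That kit enriches polyadenylated RNA and its reads carry no strand. Per the submitters' processing notes, Trimmomatic 0.38 and featureCounts 2.0.0 were used with mouse build mm10. No aligner is named in these sources. The authors deposited TPM values, 1 column per library, each summing to 1000000.

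All 55536 identifiers matched GENCODE M21, which gave symbols, positions and exon-union lengths. TPM times exon length fell on whole multiples of 1 step for 100% of values above 0, within 0.01 of a step, and 1 step was taken as 1 read or read pair. Annotated exons that a tumor does not use lower a gene's TPM, which bears on levels between genes. Ratios between tumors are free of this only where both tumors use the same exons, which was not checked. A count of 3 reads was taken as the floor of detection, 0.273 TPM in the C3G library and 0.346 TPM in the DMSO library for a gene of the assumed length of 2000 bases.

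Ratios and calls by size came from TPM with a pseudocount of 1. Intervals of ratios are exact conditional intervals on the reads, those of levels exact Poisson intervals, and those of ratios between 2 genes exact conditional odds ratio intervals (scipy 1.17.1). They cover counting error only. Calls and intervals were tested on simulated data drawn with counting error only. Those data hold no variation between mice, so they cannot show how calls or intervals fare under it. The members, gene lists and tests were chosen with earlier results of these data known. Named genes were all 10 members, every pathway gene called by size, the 2 most abundant genes of each pathway role and up to 3 of each marker list, with others named as chosen later. A marker gene that met this rule is not reported here. Genes called at 1.5-fold, genes that overlap a member and further marker genes were also named after their values were seen.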

Additional observations from a re-analysis of the deposited data

How the results depend on the processing

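No member was called by size at the 2-fold threshold under any alternative: pseudocounts of 0.1 and 5, no filter or a stricter one on low values, centring, rescaling without mitochondrial and the 50 most abundant genes, length and GC trends removed, CPM of the recovered reads, and a minimum of 50 reads. The stricter filter and the minimum of 50 reads can only remove calls, so with 0 called their outcome was fixed. Dropping the filter added only Notch4 among the members, at a log2 ratio of -0.22. At 1.5-fold, 1 member was called higher, and 3 of the other pathway genes were called higher and 1 lower. Across all genes, 11.5% were called higher and 9.15% lower at that threshold. The median log2 ratio of the members ranged from 0.20 with a pseudocount of 5 to 0.37 under the stricter filter. That of the wider list was -0.057 when centred, by construction of a shift of 0.12. Notch3 alone among the members changed sign, when centred and with trends removed. Leaving out a replicate was not possible with 1 library per group. No paired analysis was possible because each group holds 1 library. Depth limits Notch4 and Dll4 most, with 126 and 72 reads in the DMSO library.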

Other observations

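The ratio of Hey1 was set beside those of other abundant genes, a comparison set up after its values were seen. Of 1390 genes with a mean of at least 100 TPM, 25 had a log2 ratio at or above that of Hey1 (1.80%), and the median of these genes was 0.00040. Hey1 is known as a target of BMP signalling as well as of Notch, and 7 other genes known to respond to BMP were picked after the data were seen. The ratio was above 1 for 6 of them and below 1 for Id4, where 58.9% of all measured genes had log2 ratios above 0. Because the 7 were picked with the data seen, this tally is no test. The part of BMP signalling in the level of Hey1 was not tested. Id1 stood at 19.5 TPM with C3G and 19.3 TPM with DMSO, Id2 at 363 and 358 TPM, and Smad7 at 11.7 and 11.4 TPM. The differences of Id1, Id2 and Smad7 were within counting error. Their log2 ratios, 0.012, 0.021 and 0.039, lay below the median of 0.10 for all genes. Id3 stood at 21.8 TPM with C3G and 17.1 TPM with DMSO, 1.28-fold higher (1.02 to 1.60). The inhibitory Smad gene Smad6 stood at 7.27 TPM with C3G and 4.32 TPM with DMSO, 1.68-fold higher (1.23 to 2.33), and Bambi, a decoy receptor, at 6.28 and 3.05 TPM, 2.06-fold higher (1.55 to 2.77). Id4 stood at 20.5 TPM with C3G and 29.4 TPM with DMSO, 1.44-fold lower (1.26 to 1.64). These values have no replicate check. The balance of Hey1 to its relative Hey2 was 283 in the C3G tumor and 72.6 in the DMSO tumor, 3.90-fold higher (2.46 to 6.29), and rests on the few reads of Hey2.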
